A study of Homo sapiens with 2 samples.

Results

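The genes described here encode the enzymes of polyamine metabolism and their regulators in L-540, an established Hodgkin lymphoma cell line. Members were all probe sets whose annotated gene symbol was ODC1, AMD1, SRM, SMS, SAT1, SMOX, PAOX, OAZ1, OAZ2 or AZIN1. These 10 genes had 19 probe sets of their own among 22215 non-control probe sets, and 9 of them were measured, of 8277 measured genes in all. A probe set, a group of probes for a transcript, has 1 MAS5 signal per array, a linear intensity, and counted as measured where that signal lay above a floor of 68.9 units (the 40th percentile of both arrays together) on at least 1 array. The brightest measured probe set stands for its gene, and dimmer ones are given beside it. A further probe set annotated to both SAT1 and ZSWIM8 was under the floor on both arrays and was not used. Cells grown under standard conditions were either left untreated or treated with vorinostat, a hydroxamate inhibitor of histone deacetylases, and the total RNA of each culture was hybridised to 1 Affymetrix HG-U133A array. The labels gave neither dose nor time of treatment. Each group was 1 culture of a single cell line, so no difference below has a replicate check, and the number of arrays limits the precision of every ratio. The genes were chosen by their pathway and by signals of these same arrays, since the ratios of SAT1 and ODC1 were already known, so their values are given as a description.

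Putrescine, spermidine and spermine are small positively charged molecules that bind RNA, DNA and chromatin and that dividing cells need for growth and translation. Ornithine decarboxylase (ODC1) makes putrescine. S-adenosylmethionine decarboxylase (AMD1) supplies the aminopropyl groups that spermidine synthase (SRM) adds to putrescine and spermine synthase (SMS) adds to spermidine. The acetyltransferase SAT1 tags spermidine and spermine for export or for oxidation by PAOX, and SMOX oxidises spermine directly. Antizymes (OAZ1, OAZ2) bind ornithine decarboxylase and send it to the proteasome, and the antizyme inhibitor AZIN1, an ornithine decarboxylase relative without enzyme activity, binds the antizymes in its place. The activity of this pathway is set largely by translation and protein turnover, which an expression array does not measure.

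The start regions of 3 members are shown because they are those of the catabolic and the synthetic gene with the largest ratios, SAT1 and ODC1, and of SRM, the synthetic gene with a ratio below 1. RefSeq promoter windows of build GRCh38.p14, from 250 bases before to 50 bases after a start site, were found for 7 of the 10 members (10 windows). The 250 bases before the start are printed 5′ to 3′ on the gene's strand. Capitals mark matches on either strand to the searched motifs: the E-box CACGTG, the GC box GGGCGG, the CCAAT motif, the TATA motif TATAAA and the AP-1 motif TGACTCA, of which adjoining GC boxes can overlap.
SAT1, chrX:23782923-23783172, plus strand: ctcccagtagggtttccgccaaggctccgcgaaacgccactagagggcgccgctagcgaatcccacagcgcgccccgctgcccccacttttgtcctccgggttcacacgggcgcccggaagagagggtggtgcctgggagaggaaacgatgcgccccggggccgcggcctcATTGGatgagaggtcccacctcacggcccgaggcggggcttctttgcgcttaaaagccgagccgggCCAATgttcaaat
ODC1, chr2:10448328-10448577, minus strand: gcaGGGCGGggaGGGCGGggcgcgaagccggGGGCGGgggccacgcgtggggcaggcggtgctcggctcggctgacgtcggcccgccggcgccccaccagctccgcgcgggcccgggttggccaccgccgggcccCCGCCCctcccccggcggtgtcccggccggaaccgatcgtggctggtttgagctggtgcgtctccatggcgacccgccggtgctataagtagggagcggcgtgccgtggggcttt
SRM, chr1:11060019-11060268, minus strand: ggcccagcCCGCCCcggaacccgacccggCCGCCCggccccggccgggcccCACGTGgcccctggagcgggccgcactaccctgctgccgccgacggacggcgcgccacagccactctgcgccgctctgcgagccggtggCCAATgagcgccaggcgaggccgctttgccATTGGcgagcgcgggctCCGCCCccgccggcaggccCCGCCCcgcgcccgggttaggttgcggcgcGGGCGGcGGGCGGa

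These stretches differed in their counts of the searched motifs, for which exact matches alone were counted and near matches were not. The stretch before SAT1 held 2 CCAAT motifs and 0 GC boxes, that before ODC1 4 GC boxes and 0 CCAAT motifs, and that before SRM 6 GC boxes, 2 CCAAT motifs and 1 E-box. ODC1 has a second annotated start 315 bases downstream, whose window held 2 E-boxes, the motif that MYC and MAX bind and through which MYC is known to act on ODC1. They are shown with their flanks.
ODC1, chr2:10448024-10448053, minus strand: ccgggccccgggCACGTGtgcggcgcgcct
ODC1, chr2:10447990-10448019, minus strand: ggcctgcggagaCACGTGgtcgccgagcgg

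Over the 10 full windows of the 7 members, a GC box was found in 9, all but that of SAT1, a CCAAT motif in 5 and an E-box in 2. AMD1 has 3 of these windows, 2 of them shifted by 1 base, and ODC1 has 2. Among 34943 windows of the same length in the table, 44.9% held a GC box, 34.6% a CCAAT motif, 7.23% an E-box, 11.6% the TATAAA motif and 4.96% the AP-1 motif. Among the members, 1 window held the TATAAA motif (OAZ1, from position 7, after the start) and 1 the AP-1 motif (OAZ2). These matches are a description of the letters in the windows.

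SAT1 was the 1 member at least 2-fold higher in the vorinostat array, 0 members were at least 2-fold lower, and 8 lay within 2-fold. Of all measured genes, 3.77% passed 2-fold upwards and 5.12% downwards. Of the 9 measured members 8 had a ratio above 1, SRM being the exception, where 47.0% of all measured genes had one. At 1.5-fold, 4 members were higher and 0 lower, beside 12.7% and 15.5% of all measured genes. All 5 members with at least 2 measured probe sets had every ratio above 1, as did 32.2% of the genes with that many. The median log2 ratio, vorinostat over untreated, was 0.42 over the 9 measured members and -0.04 over all measured genes, and 0.36 over the 7 members other than SAT1 and ODC1. Equal medians on both arrays moved the median of all genes to 0.08 and the share of 2-fold calls that were higher from 42.4% to 58.8%. These values come from the contrast that was known when the genes were chosen.

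**Figure D1:**
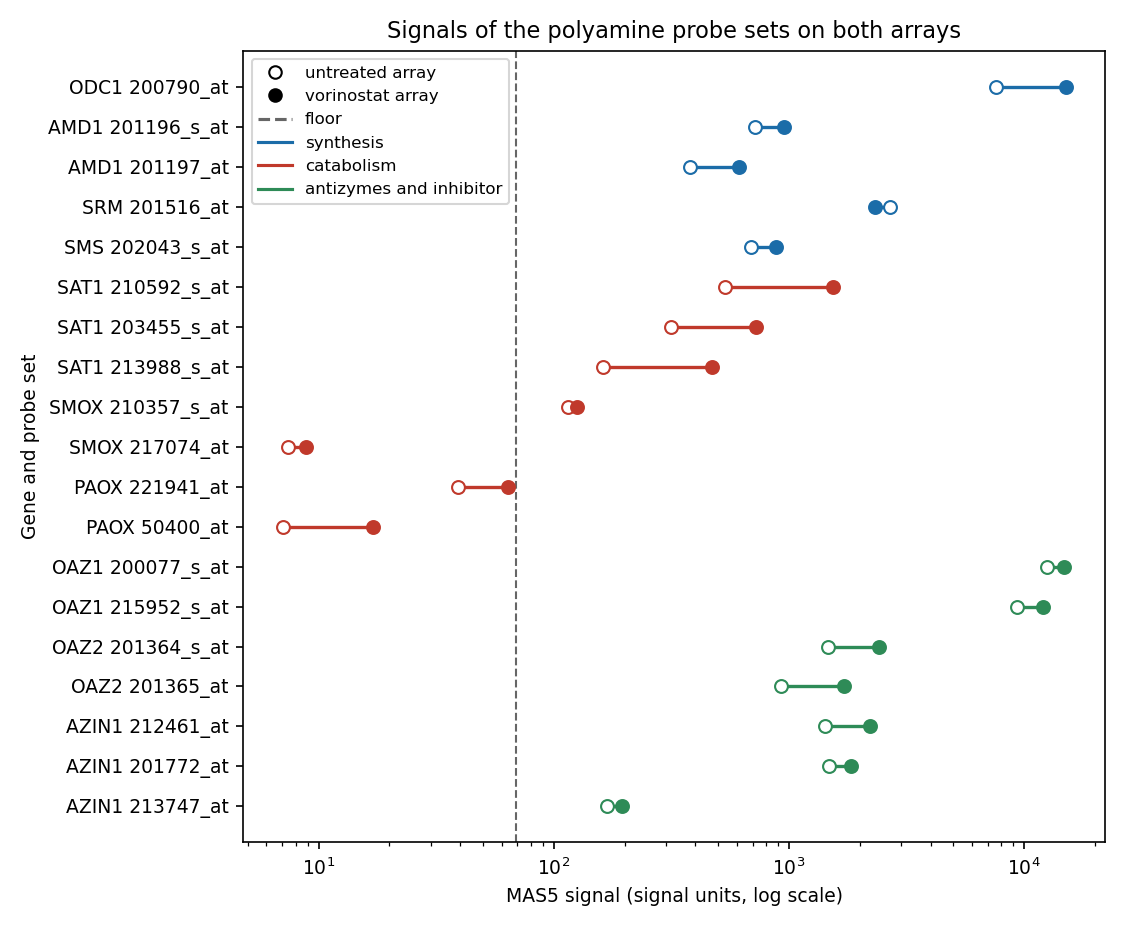
MAS5 signal (x axis, log scale) of the 19 polyamine probe sets on the untreated array (open circles) and the vorinostat array (filled circles), coloured by role, with the floor of 68.9 signal units dashed. The 3 SAT1 lines and the ODC1 line run far to the right, SRM runs to the left, and both PAOX probe sets and 1 SMOX probe set lie under the floor.

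Of the synthetic genes, ODC1 had a signal of 7581 in the untreated and 15002 in the vorinostat array on its only probe set. That is a log2 ratio of 0.98 (1.98-fold higher), just short of 2-fold, and it ranked 330 from the top of 8277 genes. With equal medians, quantile normalization or loess its log2 ratio was 1.11, 1.04 and 1.01, past 2-fold. AMD1 had signals of 714 and 957 on its brighter probe set, 1.34-fold higher. Its other probe set went from 378 to 611, with a log2 ratio of 0.69 against 0.42. Both AMD1 probe sets were thus higher in the vorinostat array, by less than ODC1.

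The enzymes that join the aminopropyl groups had smaller ratios. SRM had signals of 2690 and 2316, 1.16-fold lower in the vorinostat array, and it is the only measured member with a ratio below 1. SMS had signals of 687 and 879, 1.28-fold higher. The log2 ratios of ODC1 and SRM, the genes of the first step and of the step that follows it, were 1.20 apart. That difference is free of the scaling of an array. SRM has 1 probe set with signals above each floor, so the floors and the choice of probe set could not move its ratio. With equal medians, quantile normalization and loess its log2 ratio was -0.09, -0.24 and -0.25, still below 0.

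Of the catabolic genes, SAT1 had signals of 534 and 1539 on its brightest probe set, 2.88-fold higher in the vorinostat array. Its second probe set went from 315 to 728 (2.31-fold) and its dimmest from 162 to 470 (2.90-fold). All 3 SAT1 probe sets were thus past 2-fold. Over all genes with at least 3 measured probe sets, 5 of 986 (0.507%) had every one of them at least 2-fold higher, SAT1 included. The log2 ratio of 1.53 ranked 62 from the top. All 3 probe sets carry the _s_at suffix, which marks probes that can match more than 1 transcript, so SAT1 has no value without such probe sets.

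The oxidase genes gave little signal. SMOX had signals of 115 and 125 on its measured probe set, a log2 ratio of 0.12, and its other probe set was under the floor on both arrays at 7.38 and 8.81. PAOX, the peroxisomal oxidase of acetylated polyamines, was under the floor on both arrays, with signals of 39.0 and 63.8 on 1 probe set and 7.03 and 17.0 on the other. PAOX is the member that was not measured, and no fold is given for it. The log2 ratios of SAT1 and SMOX were 1.41 apart, so the acetyltransferase gene and the spermine oxidase gene did not have like ratios on this pair of arrays.

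**Figure D2:**
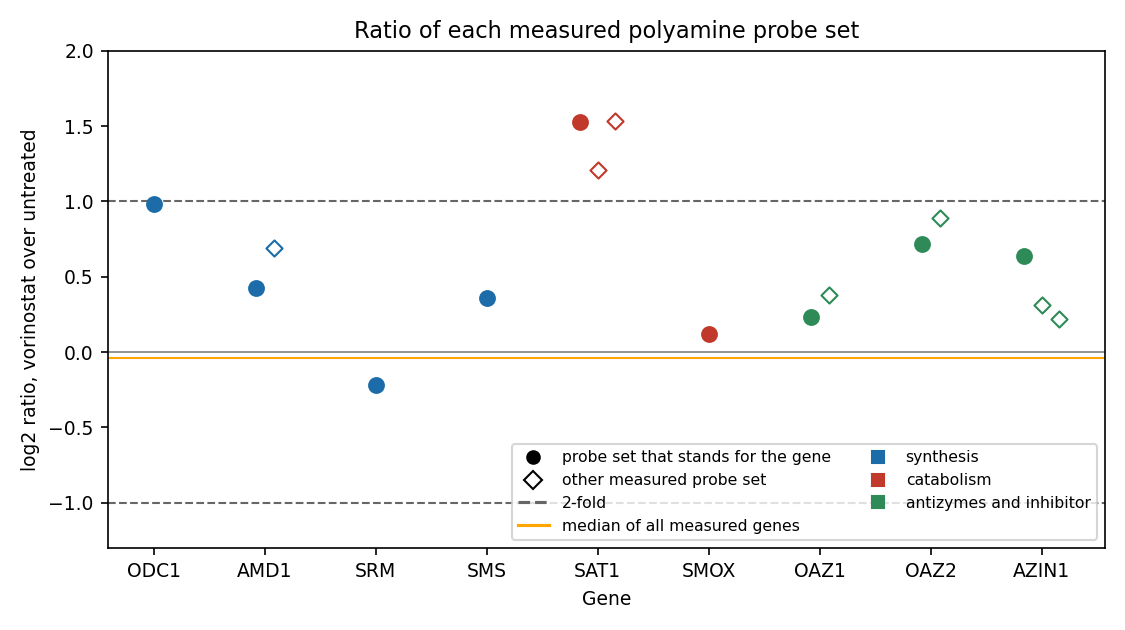
Log2 ratio, vorinostat over untreated (y axis), of each of the 16 measured polyamine probe sets by gene (x axis), filled for the probe set that stands for the gene and coloured by role, with dashed lines at 2-fold and the median of all measured genes in orange. The 3 SAT1 probe sets lie above the upper line at 1.21 to 1.53, ODC1 lies at 0.98, and SRM at -0.22 is the only point below 0.

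Of the regulators of ornithine decarboxylase, OAZ2 had the largest ratio, with signals of 1470 and 2417 (1.64-fold higher) on 1 probe set and 925 and 1712 (1.85-fold) on the other. OAZ1 had signals of 12504 and 14721, 1.18-fold higher, and 9280 and 12060, 1.30-fold higher. The log2 ratio of OAZ2 was 0.48 above that of OAZ1 on the probe sets that stand for them. Both probe sets of OAZ2 had larger ratios than both of OAZ1.

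AZIN1, the gene whose product counters the antizymes, had signals of 1428 and 2219 on its brightest probe set, 1.55-fold higher. Its other probe sets went from 1476 to 1834 (1.24-fold) and from 168 to 195 (1.16-fold). The probe sets of AZIN1 were all higher in the vorinostat array but differed in size, with log2 ratios of 0.22 to 0.64. The median over them was 0.31, under 1.5-fold. Antizyme and antizyme inhibitor transcripts were both higher, and neither OAZ1, OAZ2 nor AZIN1 reached 2-fold.

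The spread between probe sets of a gene is the only error these arrays give, and it does not cover the difference between cultures. Among 2428 genes with at least 2 probe sets above the floor on both arrays, the log2 ratios of the 2 brightest differed by a median of 0.25, and by up to 0.67 at the 90th percentile. The 2 probe sets of AMD1 differed by 0.27, those of OAZ1 by 0.14 and those of OAZ2 by 0.17. The probe sets of SAT1 spanned 0.33 and those of AZIN1 0.42, ranges over 3 probe sets and so not the same measure. The difference of 0.54 between SAT1 and ODC1 exceeded that median and lay within that 90th percentile. ODC1, SRM, SMS and SMOX rest on 1 measured probe set each.

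**Figure D3:**
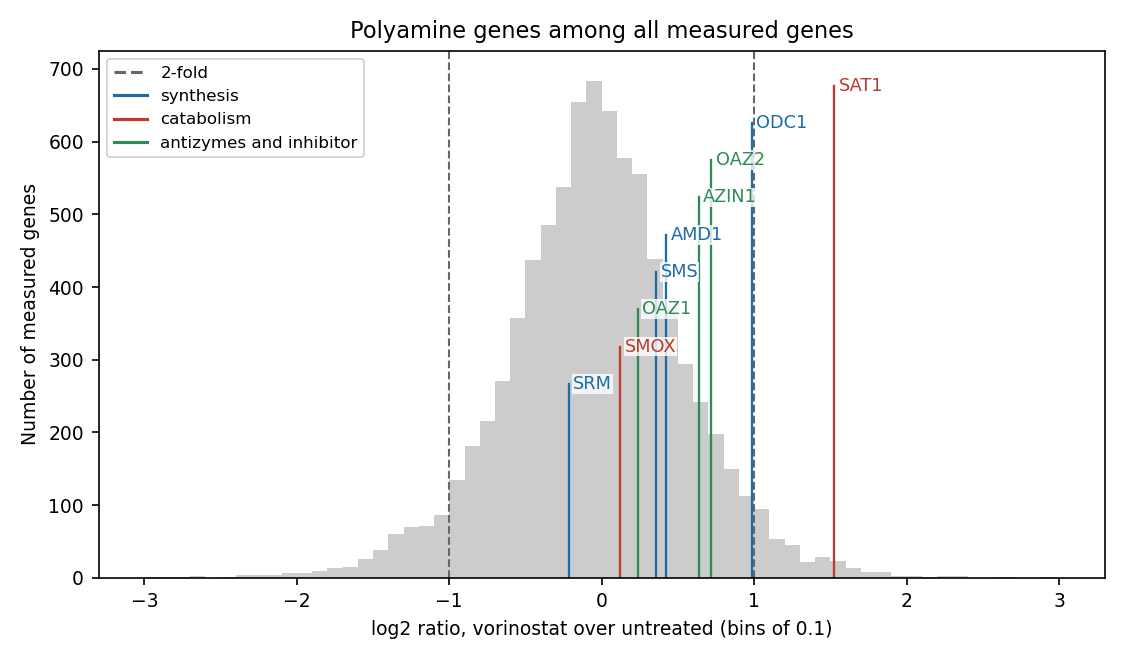
Number of measured genes (y axis) by log2 ratio, vorinostat over untreated (x axis, bins of 0.1), for all 8277 measured genes in grey, with the 9 measured polyamine genes as lines coloured by role, whose heights serve the labels alone, and 2-fold dashed. SAT1 stands in the right tail at 1.53 and ODC1 at the 2-fold line, while the other members lie between -0.22 and 0.72.

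The measured genes whose signals on both arrays lay nearest to those of SAT1 were CPNE3 (548 and 1585), CPD (506 and 1471), BLVRA (571 and 1614) and PEX3 (512 and 1401). Their Euclidean distances over the 2 log2 signals were 0.06, 0.10, 0.12 and 0.15. With 2 arrays this likeness says only that the signals were close.

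A list of 47 genes around the pathway covered the supply and turnover of its precursors and the salvage of its by-product. It also covered the use of spermidine for hypusine, transport, and transcription factors known to act on ODC1 or SAT1. Probe sets of their own were found for 41, and 33 were measured, of which 4 were at least 2-fold higher, 2 lower and 27 within 2-fold. The median log2 ratio was -0.08, against 0.42 for the polyamine genes themselves and -0.04 for all measured genes. The related genes thus went both ways, with 14 ratios above and 19 below 1 as reported, and 20 above and 13 below with equal medians.

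Of 8 measured genes listed around arginine and ornithine (ARG2, OAT, ALDH18A1, SLC7A1, SLC7A5, SLC25A15, AGMAT and GATM), 2 were at least 2-fold higher and 1 lower. Not all of the 8 serve supply. ARG2, the mitochondrial arginase that makes ornithine, had signals of 594 and 1375 (2.32-fold higher), but its other probe set went from 326 to 394, a log2 ratio of 0.27. OAT, which interconverts ornithine and glutamate semialdehyde, had signals of 394 and 837 (2.13-fold higher). SLC7A1, the cationic amino acid transporter that imports arginine and ornithine, had signals of 2367 and 1023 (2.31-fold lower). All 4 measured probe sets of SLC7A1 were at least 2-fold lower, 2 of them as bounds set by the floor. SLC25A15, the mitochondrial ornithine carrier, was 1.70-fold lower (141 and 82.8). ARG2 and OAT, enzyme genes of ornithine, and SLC7A1, the importer gene, therefore lay on opposite sides in this pair of arrays.

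Of 5 measured genes listed around methionine and S-adenosylmethionine (MAT2A, MAT2B, AHCY, MTR and SLC3A2), 0 passed 2-fold. All 5 had ratios below 1 (median log2 ratio -0.11), but only 2 of them with equal medians (median 0.02). Of 4 genes that salvage methylthioadenosine, the by-product of spermidine and spermine synthesis, 0 passed 2-fold, and ADI1, which acts late in that salvage, was 1.89-fold lower (1137 and 602).

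Hypusine is made from spermidine on the translation factor eIF5A. Of 4 measured genes of this branch, 1 was at least 2-fold higher, the paralogue gene EIF5A2 (113 and 263, 2.33-fold), and 0 were lower. DOHH, the hydroxylase that completes hypusine, was 1.74-fold lower (506 and 291). Of 4 measured transport and uptake genes, 1 was at least 2-fold higher and all 4 had ratios above 1 (median log2 ratio 0.59). The higher one was CAV1, a component of caveolae, at the floor in the untreated array (62.0) with 149 in the vorinostat array, at least 2.17-fold higher. Its other probe set went from 78.1 to 117, a log2 ratio of 0.58 and short of that bound.

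Among 8 measured transcription factors, 1 was at least 2-fold lower, namely ATF4, a regulator of amino acid and stress genes (6311 and 2791, 2.26-fold), and 0 were higher. MYC, which is known to act on ODC1, had signals of 3471 and 3263, a log2 ratio of -0.09. The log2 ratios of ODC1 and MYC were 1.07 apart. HIF1A, the hypoxia factor gene, was 1.76-fold higher (2682 and 4719).

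**Figure D4:**
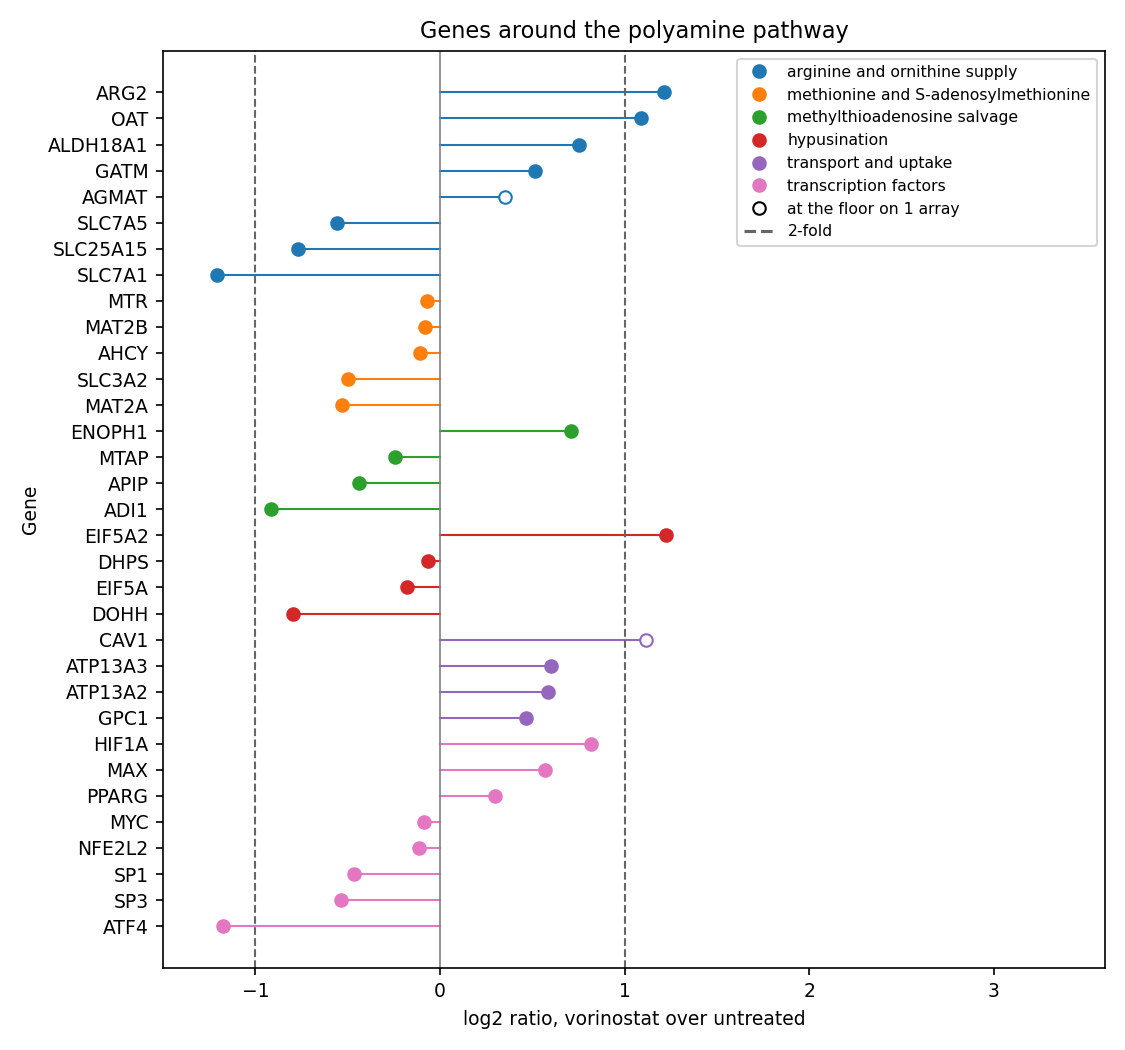
Log2 ratio, vorinostat over untreated (x axis), of the 33 measured genes around the polyamine pathway (y axis), coloured by group, with open circles for genes at the floor on 1 array and dashed lines at 2-fold. EIF5A2, ARG2, CAV1 and OAT lie beyond the upper line at 1.22, 1.21, 1.12 and 1.09, and SLC7A1 and ATF4 beyond the lower one at -1.21 and -1.18.

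The labelled cell type was checked against its markers. Of 10 Hodgkin cell markers 8 were measured, among them TNFRSF8, IRF4, GATA3 and BATF3, while CCL17 and IL13RA1 were under the floor on both arrays. Of 8 T cell markers 5 were measured, and CD3D, CD3G and CD7 were under the floor. The brightest was CD247 (4463 and 942, 4.74-fold lower), beside CD4 (926 and 812), CD2 (319 and 220), CD3E (139 and 47.4) and CD5 (120 and 35.5). CD3E and CD5 were under the floor in the vorinostat array. Of 6 B cell markers, 5 had probe sets of their own, and MS4A1, CD79A and CD79B were under the floor. The 2 measured were PAX5 (313 and 127, 2.46-fold lower) and CD22 (186 and 128). The other PAX5 probe set was near the floor, with signals of 73.5 and 46.6. Of 4 monocyte, 3 fibroblast and 3 epithelial markers, 1, 2 and 1 were above the floor on at least 1 array. Of 3 erythroid markers HBB alone had probe sets of its own, and it was above the floor. The measured Hodgkin, T cell and B cell markers had median log2 ratios of -0.72, -0.80 and -0.92, the last over 2 genes. The T cell median is the ratio of CD5, which like that of CD3E is a bound set by the floor. In the vorinostat array 3, 2 and 1 of these markers were at least 2-fold lower, beside 5.12% of all measured genes. Of the Hodgkin markers, 2 had ratios above 1, IRF4 and GATA3 (log2 ratios 0.29 and 0.42), and 6 had ratios below 1. The part of these markers in the ratios of the polyamine genes was not tested. Both cultures were of a single cell line, so these lists describe that line and do not measure shares of cell types. Whether fewer cells expressed a marker or each cell held less of its RNA was not tested.

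**Figure D5:**
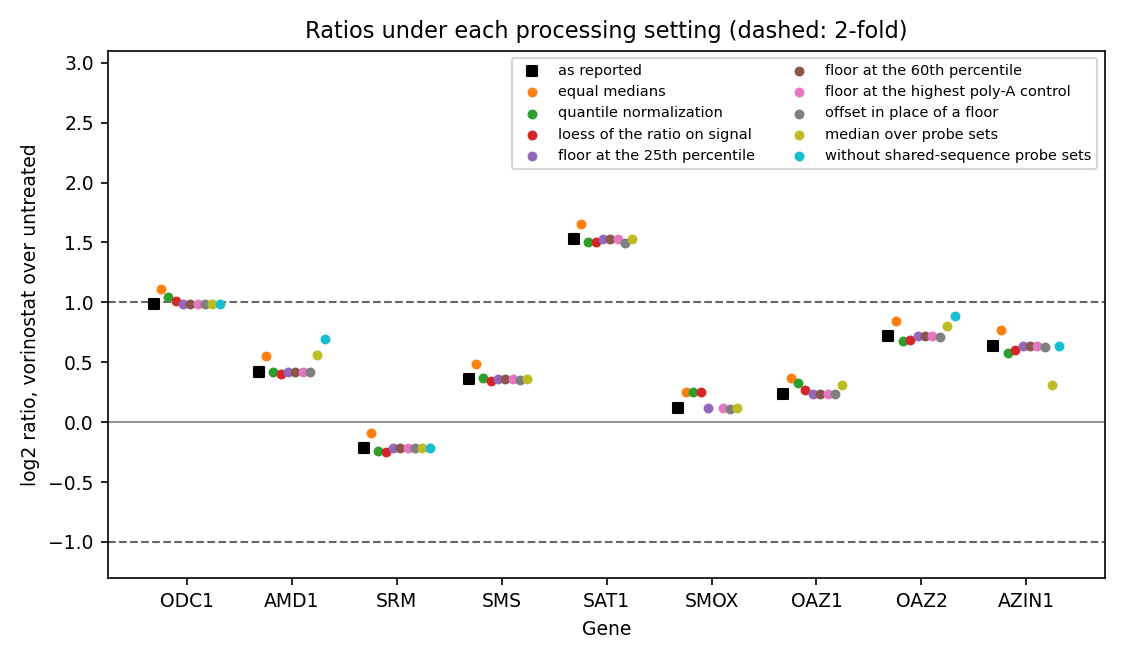
Log2 ratio, vorinostat over untreated (y axis), of the 9 measured polyamine genes (x axis) under the reported setting (black squares) and each alternative that gives a value (coloured circles), with 2-fold dashed. SAT1 stays above 2-fold and reaches 1.66, ODC1 sits on the line at 0.98 to 1.11, and SRM stays below 0.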

How the data were processed

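Total RNA from 2 cultures of L-540 cells, 1 untreated and 1 treated with vorinostat, was hybridised to 1 HG-U133A array each. The authors deposited 1 intensity value per probe set, a signal on a linear scale. The submitters' processing notes name MAS5; its version and scaling target are not given in the sources used here. The mean signal after trimming was 500.2 on both arrays, and the scaling was kept.

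Of 22215 non-control probe sets, 19065 carried a single symbol in the platform annotation, 1043 carried several and named no gene, and 2107 carried none. Entrez identifiers matched to a RefSeq table of GRCh38.p14 changed 0 symbols. Signals under the floor, the 40th percentile of the non-control signals (68.9 units), were raised to it ahead of the log2 step. A probe set under it on both the untreated and the vorinostat array counts as not measured. Each gene is represented by its brightest measured probe set, by mean log2 signal. As each group held 1 array, there is no test, and at least 2-fold served as a rule of size. The steps were tested on simulated data. Values were computed with Python 3.11.15, numpy 2.4.6, pandas 2.3.3 and statsmodels 0.14.6.

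The members and lists were chosen with earlier results of these data known. The text names all 10 members; list genes past 2-fold, the 4 largest of the other list genes and MYC; and the 4 genes nearest to the member with the largest ratio in both log2 signals. Alternatives were equal medians, quantile normalization, loess, floors at the 25th and 60th percentile and at the highest poly-A control (43.1 units), an offset of 16 units, the median over probe sets, no probe sets with a suffix that marks shared sequence (_s_at, _x_at or _a_at), and thresholds of 1.5-fold and 3-fold.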

Additional observations from a re-analysis of the deposited data

How the results depend on the processing

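No member changed direction under any alternative that gave it a value. Some alternatives cannot move a gene, such as floors under its signals or the median over 1 probe set. SAT1 stayed past 2-fold in each of 8 alternatives (highest log2 ratio 1.66). The floors could not move SAT1, since the signals of its brightest probe set lay above each of them. The count of members at least 2-fold higher, 1 as reported, was 2 with equal medians, quantile normalization or loess. There ODC1 had a log2 ratio of 1.11, 1.04 and 1.01. The share of all measured genes at least 2-fold higher moved too, from 3.77% to 5.56%, 4.28% and 4.15%. The member count was 0 without shared-sequence probe sets (4.24% of all measured genes), which leave 5 measured members and no SAT1. It was 4 at the 1.5-fold threshold (12.7%) and 0 at the 3-fold threshold (0.544%). The count of members lower was 0 throughout, beside 3.89% to 6.82% of all measured genes at the 2-fold threshold. The members' median log2 ratio of 0.42 was 0.55 with equal medians, 0.53 with the floor at the 25th percentile (10 measured members) or at the 60th (8 members), and 0.69 without shared-sequence probe sets. It fell to 0.36 with the median over probe sets. The difference of SAT1 and ODC1 moved by less than 0.1 wherever both were measured. Of the related genes, 4 were higher and 2 lower as reported. The higher count was 2 for a 60th percentile floor, 2 with the median over probe sets, 2 without shared-sequence probe sets, 9 at 1.5-fold and 0 at 3-fold. The lower count was 5 at 1.5-fold and 0 at 3-fold. SMOX was not measured at the 60th percentile floor, and SMS, SMOX and OAZ1 have no probe set free of the suffix above the floor. No paired analysis was possible because each group held 1 array. Signals near the floor, as for SMOX, limit what can be seen.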

Other observations

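Further values around the pathway were picked after they were seen. EIF5A, the hypusine-bearing translation factor gene, had 3 measured probe sets that differed in size, with log2 ratios of -0.18, -0.32 and -1.11, vorinostat over untreated. Of 5 probe sets of MTAP, which cleaves methylthioadenosine, 1 was measured, with signals of 154 and 130. The others were far under the floor, with signals from 3.63 to 15.9, so MTAP counts as measured on that probe set alone. ATP13A3, an endosomal polyamine transporter gene, was higher in the vorinostat array on both probe sets, with signals of 1196 and 1815 (1.52-fold) and of 533 and 1016 (1.91-fold). MAX, the partner of MYC, had 5 measured probe sets that went both ways, from a log2 ratio of 0.57 on the brightest to -0.29 on the dimmest.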
